A study of Mus musculus with 6 samples.

Results

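Guide sg2 was compared with the empty vector (EV) in 32D cells, a line of mouse myeloid progenitors that grows in interleukin 3 (1 ng/mL here). All cells carried dCas9-KRAB, a nuclease-dead Cas9 joined to the KRAB repressor domain. They had received lentivirus with sg2 or with no guide, followed by a week of puromycin. Each group had 2 libraries, so the comparison used 4 of the 6 libraries of the series, and a second guide, sg5, made up the other two. A gene was a member if its mean over the 4 libraries was at least 1 FPKM (fragments mapped to a gene, relative to its transcript length and to the library's total), which held for 12921 of 47606 genes. Of these, 10576 were protein-coding, out of 21958 protein-coding genes in the files. The series is about an enhancer of CEBPE, and the comparison asks which RNAs differed when dCas9-KRAB was combined with sg2. Neither the guide's sequence nor its target position is given in the sources at hand, and the labels do not say whether the libraries came from separate cultures, so the tests measure only the spread between these libraries.

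Cebpe encodes C/EBP epsilon, a basic leucine zipper transcription factor of late granulocyte development. Promyelocytes first fill primary (azurophil) granules with myeloperoxidase and serine proteases, and later stages make specific and gelatinase granules, whose genes are known targets of C/EBP epsilon. Lactoferrin and the neutrophilic granule protein belong to the specific granules, and loss of C/EBP epsilon is known as a cause of specific granule deficiency. KRAB recruits repressive chromatin to the site that a guide marks, so a guide at an enhancer can lower the RNA of the gene it controls without changing the DNA.

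The sequences before the start sites of 4 genes with large differences are shown because C/EBP factors bind DNA directly. They come from RefSeq (GRCm38.p6), run 5′ to 3′ on the gene's strand, and keep only bases outside the gene body in GENCODE M21. Capitals mark TTGCNNAA read on either strand (TTNNGCAA on the other), a form of the C/EBP recognition sequence. The windows are chr9:110419558-110419746 for Ngp (plus strand), chr9:111019042-111019270 for Ltf (plus), chr3:90695722-90695971 for S100a9 (minus) and chr3:90668821-90668977 for S100a8 (plus).
Ngp: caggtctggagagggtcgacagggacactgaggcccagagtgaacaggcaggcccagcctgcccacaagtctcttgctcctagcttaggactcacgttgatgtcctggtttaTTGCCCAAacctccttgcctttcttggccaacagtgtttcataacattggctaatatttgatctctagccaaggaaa
Ltf: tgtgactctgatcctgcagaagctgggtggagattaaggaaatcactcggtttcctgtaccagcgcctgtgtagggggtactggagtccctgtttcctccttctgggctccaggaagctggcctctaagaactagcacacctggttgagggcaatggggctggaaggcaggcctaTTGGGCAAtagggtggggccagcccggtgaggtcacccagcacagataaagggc
S100a9: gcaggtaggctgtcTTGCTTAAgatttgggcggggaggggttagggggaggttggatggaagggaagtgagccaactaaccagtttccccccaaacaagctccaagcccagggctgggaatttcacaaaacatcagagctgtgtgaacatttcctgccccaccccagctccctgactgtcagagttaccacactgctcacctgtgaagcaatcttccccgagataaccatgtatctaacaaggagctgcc
S100a8: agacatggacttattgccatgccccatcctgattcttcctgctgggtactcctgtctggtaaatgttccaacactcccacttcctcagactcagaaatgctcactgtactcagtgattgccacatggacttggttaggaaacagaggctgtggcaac

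Ngp had 2 matches in the 250 bases before its RefSeq start, at 138 bases and at 11 bases before it, and the nearer one lies in the bases not printed. The match of Ltf lay 75 bases before its start and that of S100a9 236 bases. S100a8 had no match in the 250 bases before its start. Of all 32851 promoters in the table, 3142 (9.56%) held the motif in those 250 bases, and of the 8169 tested protein-coding genes with a promoter in the table, 734 (8.99%) did. Among the 17 protein-coding genes called lower below, 14 had a promoter in the table and 3 of these held it (21.4%): Ltf, Ngp and S100a9. Of the 3 called higher, 2 had a promoter and 1 of these held it, Il4. Of the 25 genes listed for specific and gelatinase granules, 22 had a promoter and 7 held the motif (31.8%), namely Adam8, Lcn2, Ltf, Mmp8, Ngp, Retnlg and Slpi. A match is a description of these letters, not a measured binding site.

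The low values of long genes with a single transcript were nearly whole multiples of 1 fragment, from which a depth of 31600000 to 44700000 fragments per library was worked out for EV and 37400000 to 38600000 for sg2. At that depth, 3 fragments on a transcript of 1 kb come to 0.0671 to 0.0966 FPKM over all 6 libraries. Libraries with the same replicate number deviated together: the change from number 1 to number 2 in EV and in sg2 correlated across protein-coding genes (r = 0.863), which share those libraries. Genes shorter than 200 nt took 6.77% and 16.4% of the summed FPKM in EV and 9.03% and 21.6% in sg2 (numbers 1 and 2). Differences are therefore given within each number first. Of 10 progenitor markers 8 were at 1 FPKM or above, with sums of 1207 and 966 in EV and 1087 and 1045 in sg2, while Kit was listed at 0 in all 4 libraries. Mast cell and basophil markers (7 of 10 at 1 FPKM or above) summed to 1554 and 3090 in EV and 2259 and 3427 in sg2, and those of monocytes (3 of 10, F13a1 listed at 0) to 99.3 and 152 against 106 and 170. Eosinophil markers (2 of 9, with Ear1, Ear2 and Ear6 listed at 0) summed to 81.8 and 262 against 12.2 and 60.9. Erythroid and megakaryocyte markers (6 of 10, Hbb-bs and Hbb-bt listed at 0) summed to 224 and 172 against 233 and 213.5. Lymphoid markers (2 of 9, Cd3e listed at 0) summed to 9.09 and 8.8 against 10.2 and 7.88. The part of these cell type markers in the results below was not tested.

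Cebpe RNA was lower with sg2 in both numbers. In RNA from whole cultures, fewer cells that express a gene and less RNA per cell cannot be told apart. The gene (ENSMUSG00000052435, chr14:54710360-54712174, minus strand, GRCm38 as all positions here) stood at 42.0 and 100 FPKM in EV and at 14.4 and 18.7 FPKM in sg2. Both sg2 libraries were below both EV libraries, and the EV libraries differed from each other more than the sg2 libraries did. The sg2 level was 34.4% of EV in number 1 and 18.6% in number 2. On the log2(FPKM + 1) scale, on which changes of weakly expressed genes come out smaller, the difference was −1.92 (SE 0.19). The limma fit of protein-coding genes, with the replicate number as a block, gave a Benjamini-Hochberg adjusted p of 0.0169, and the limma fit of all genes 0.442. An exact permutation test on Cebpe alone gave p = 0.333 (two-sided), the smallest that 6 splits of 4 libraries allow. The adjusted p in the protein-coding limma fit was 0.198 without sg2 replicate 1 and 0.511 without sg2 replicate 2, with differences of −2.11 and −1.73. Without the replicate block it was 1.0, without the filter on low values 0.51 and with robust empirical Bayes 0.247. Over every alternative tried with protein-coding genes alone, it ran from 0.00012 to 1.0.

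Within 500 kb of Cebpe, 27 of 64 annotated genes passed the filter, and Cebpe was the only one of them called. In both numbers 10 of the 27 were lower and 6 higher, against 23.8% and 26.2% of all genes tested. The median difference was 0.02, and it was −0.05 without EV replicate 1 and −0.02 without sg2 replicate 2. The amino acid transporter gene Slc7a8, 10 kb away, was at 15.6 and 50.1 FPKM in EV and 12.6 and 23.1 in sg2, a difference of −0.29 in number 1 and −1.09 in number 2 (limma adjusted p = 0.473 among protein-coding genes). The gene 1700123O20Rik, 19.6 kb away, was at 21.6 and 26.6 FPKM in EV and 17.8 and 12.1 in sg2, with −0.27 and −1.07 (adjusted p = 0.514). For both neighbours the gap was wider in number 2, as it was for Cebpe, and neither passed the test. Acin1, which encodes a protein of RNA splicing complexes 23.4 kb from Cebpe, was at 129 and 134 FPKM in EV and 119 and 122 in sg2.

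**Figure D1:**
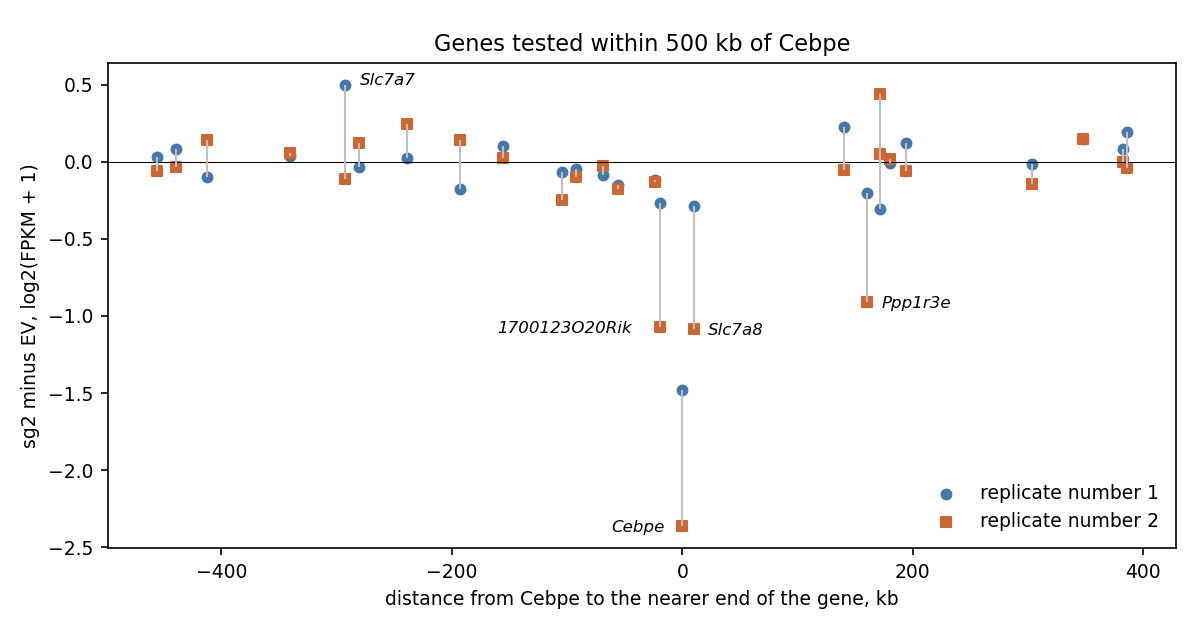
Difference between sg2 and EV on the log2(FPKM + 1) scale (vertical axis) for the 27 tested genes within 500 kb of Cebpe, by distance in kb (horizontal axis); circles are replicate number 1 and squares number 2. Cebpe, at −1.48 and −2.36, lies below the other 26 genes in both numbers.

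Across all 12921 genes, 1 gene passed an adjusted p of 0.05 in the limma fit, which is 0.00774% of those tested: Ngp, lower with sg2 (adjusted p = 0.0237). Unadjusted p was below 0.05 for 612 genes (4.74%). With protein-coding genes alone in the limma fit, 20 of 10576 were called (0.189%), 17 lower (0.161%) and 3 higher (0.0284%), and 666 had an unadjusted p below 0.05 (6.3%). Genes of other biotypes had a median SE of 0.25 against 0.095 for protein-coding genes. Only this second fit is meant below where a gene is said to have risen or fallen. Each library was also left out in turn, in fits that kept the sg5 libraries to estimate the spread. Called counts then ran from 4 (without sg2 replicate 2) to 93 (without EV replicate 1), and were 15 without EV replicate 2 and 6 without sg2 replicate 1. Ngp, Nmral1, S100a8 and S100a9 were called in all 4 of those fits. Without the replicate block no protein-coding gene was called by limma, and 54 had an unadjusted p below 0.05. Among protein-coding genes, 15 were lower by more than 1 log2 unit in both numbers with no overlap of the groups (0.142%) and 3 were higher (0.0284%). Over all biotypes these counts were 55 (0.426%) and 46 (0.356%).

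**Figure D2:**
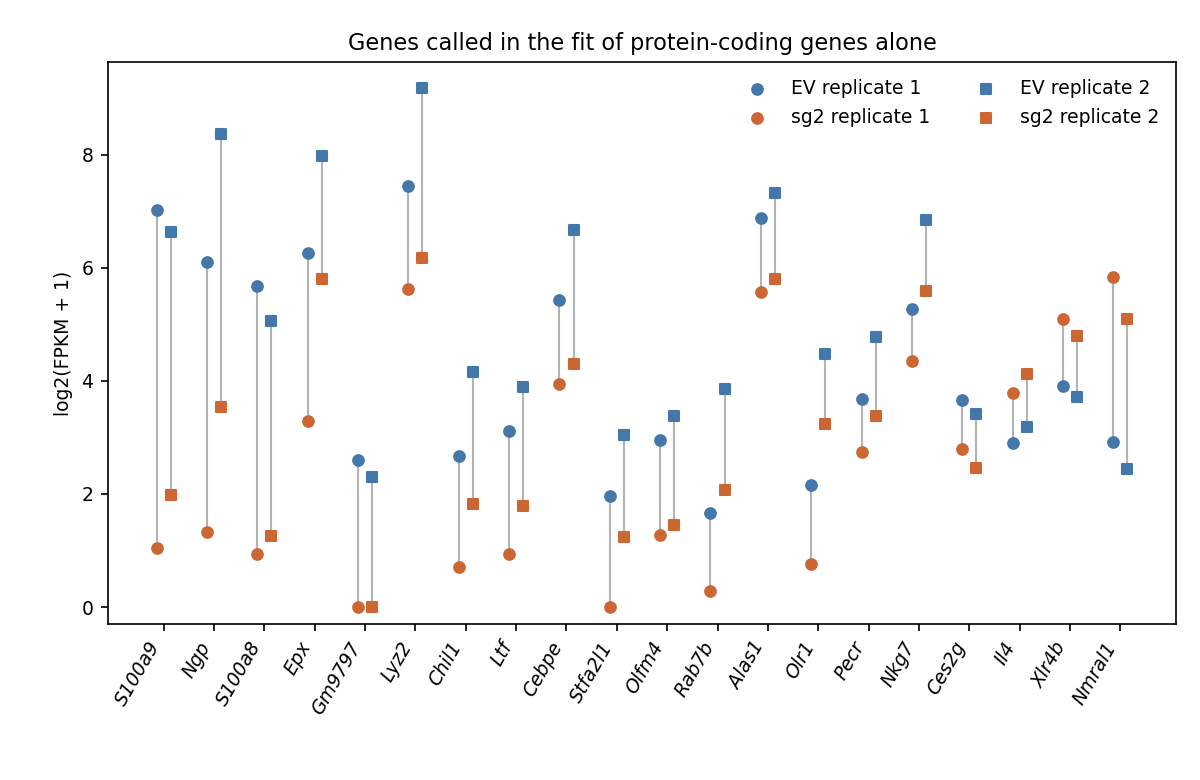
Level on the log2(FPKM + 1) scale (vertical axis) of the 20 genes called in the protein-coding fit (horizontal axis), with EV in blue and sg2 in orange, replicate number 1 and number 2 by marker. In each number the sg2 point lies under the EV point for 17 genes and over it for Nmral1, Xlr4b and Il4.

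**Figure D3:**
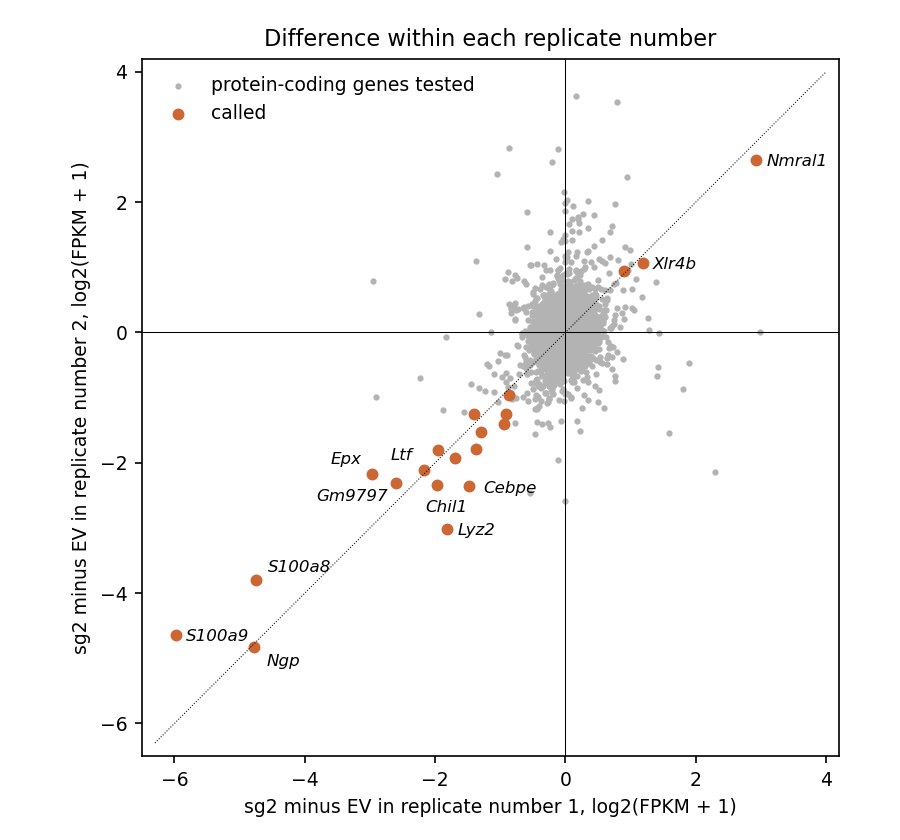
Difference between sg2 and EV in replicate number 1 (horizontal axis) and number 2 (vertical axis), log2(FPKM + 1), for 10576 protein-coding genes; called genes are orange and the dotted line marks equal differences. Ngp, S100a8 and S100a9 lie far from the rest at the lower left and Nmral1 at the upper right.

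Genes of the neutrophil's specific and gelatinase granules gave more called genes than any other list. Of 25 listed genes 17 were tested, 5 fell (Ngp, Ltf, Chil1, Olfm4 and Lyz2), none rose and 12 did not pass. For this list and those below, 0.161% of all protein-coding genes tested fell and 0.0284% rose. In both numbers 14 of the 17 were lower, against 24.2% of protein-coding genes, and 9 were lower without overlap of the groups, against 5.3%. The list's median difference was −0.62, against 0.0048 over protein-coding genes. The list's tested genes had to reach 1 FPKM on average. Of the 9 without overlap, 1 (Mmp9) did so only through EV, with its sg2 mean below 1 FPKM. This list, like all of those below, was drawn up with earlier results of these data known, so its counts are descriptions.

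Ngp, the neutrophilic granule protein (ENSMUSG00000032484, chr9:110419747-110423012, plus strand), is related to the cathelicidins. It was at 67.7 and 331 FPKM in EV and at 1.51 and 10.6 FPKM in sg2. Every sg2 library lay far under every EV library, at 2.23% of EV in number 1 and 3.21% in number 2. The difference was −4.80 on the log2 scale (SE 0.091, limma adjusted p = 3.53e-06), with −4.77 and −4.83 in the 2 numbers, so the gap was nearly equal although the EV level itself was far higher in number 2.

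Ltf encodes lactoferrin, the iron-binding protein of specific granules. Its RNA was at 7.67 and 13.9 FPKM in EV and 0.927 and 2.44 in sg2, again without overlap, a difference of −2.14 (SE 0.13, limma adjusted p = 0.00156). Chil1, a chitinase-like granule protein, was at 5.35 and 16.8 FPKM in EV and 0.628 and 2.53 in sg2 (−2.15, SE 0.15, limma adjusted p = 0.00266). The specific granule glycoprotein Olfm4 was at 6.80 and 9.40 FPKM in EV and 1.41 and 1.75 in sg2 (−1.81, SE 0.14, limma adjusted p = 0.00439). For Chil1 and Olfm4, too, both sg2 libraries were below both EV libraries. Like Ngp, Ltf, Lyz2, S100a8, S100a9, Stfa2l1, Epx, Alas1 and Gm9797, they were picked from genes lower with sg2 whose groups did not overlap. The lack of overlap of these genes was therefore fixed by the choice. Of all protein-coding genes tested, 5.3% were lower without overlap. Lyz2, the lysozyme of granulocytes and macrophages, was at 173 and 578 FPKM in EV and 48.4 and 70.8 in sg2. Its difference was −1.81 in number 1 and −3.01 in number 2 (−2.41 in the fit, SE 0.24, limma adjusted p = 0.0169).

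Other genes of the list had the same sign without passing. Lcn2, the iron-scavenging lipocalin of specific granules, was at 191 and 202 FPKM in EV and 150 and 114 in sg2 (−0.59, adjusted p = 0.257 by limma). Mmp9, gelatinase B, was at 1.81 and 1.88 FPKM in EV and 0.378 and 0.373 in sg2 (−1.05, adjusted p = 0.177 by limma). These groups did not overlap. Mmp9 was near the filter, and with a mean of 0.376 FPKM in sg2 it reached the filter only through EV. The peptidoglycan receptor Pglyrp1, among the highest of the list, was at 407 and 508 FPKM in EV and 351 and 499 in sg2, with overlap. Camp, the cathelicidin of mouse neutrophils, stood at 0.107 and 0.262 FPKM in EV, at 0 in each sg2 library, and stayed under the filter. Cd177, another gene of the list under the filter, was not lower in both numbers, at 0.037 and 0.683 FPKM in EV and 0.030 and 0.736 in sg2. Ly6g, a surface marker of mature neutrophils, belongs to the receptor and chemotaxis list below. It was under the filter as well, at 0.574 and 1.45 FPKM in EV and 0.033 and 0 in sg2. Genes of that list under the filter were mixed. Ccr1 was at 0.281 and 1.47 FPKM in EV and 0.115 and 2.05 in sg2. Trem1 was at 0.088 and 0.242 against 0.081 and 0.345.

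S100a8 and S100a9 encode the subunits of calprotectin, a calcium- and zinc-binding protein that fills the cytoplasm of neutrophils, and they are neighbours on chromosome 3. S100a8 (chr3:90668978-90670035, plus) was at 50.4 and 32.2 FPKM in EV and 0.905 and 1.39 in sg2. S100a9 (chr3:90692632-90695721, minus) was at 130 and 98.4 FPKM in EV and 1.07 and 2.97 in sg2. For both genes every sg2 value was below 5% of the EV value of the same number. On the log2 scale S100a8 fell by 4.28 (SE 0.21), and S100a9 fell by 5.31 (SE 0.27), each with a limma adjusted p of 0.000772. The difference of S100a9 was −5.98 in number 1 and −4.65 in number 2. The other 8 tested genes of the S100 list did not pass: S100a11 was at 541 and 1141 FPKM in EV and 563 and 893 in sg2, and S100a10 at 210 and 348 against 237 and 325.

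Stefins inhibit cysteine proteases, and a cluster of them is expressed in mouse neutrophils. Stfa2l1 was at 2.88 and 7.23 FPKM in EV, and in sg2 it was listed at 0 in number 1 and at 1.36 in number 2. It fell by 1.88 on the log2 scale (SE 0.16, limma adjusted p = 0.00773). Its mean in sg2 was 0.678 FPKM, so it reached the filter only through EV. Stfa1 was at 2.96 and 3.38 FPKM in EV and 0.853 and 1.33 in sg2, and Gm5483 at 7.34 and 7.50 against 0.108 and 3.28. Their groups did not overlap, but neither passed (limma adjusted p = 0.123 and 0.245). These genes are near-identical copies of each other, so how their reads were shared out is uncertain. The more widely expressed Cst3 and Cstb were at 133 and 145 and at 73.3 and 98.4 FPKM in EV, and at 137 and 153 and at 77.9 and 82.1 in sg2.

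Primary granule genes moved less than specific granule genes, by their medians (−0.12 against −0.62), a contrast that was not tested. Of 21 listed, 20 were tested and 1 fell: Nkg7, a granule membrane protein also known from cytotoxic lymphocytes, at 37.5 and 114 FPKM in EV and 19.4 and 47.2 in sg2 (−1.09, SE 0.11, limma adjusted p = 0.0169). The Nkg7 groups overlapped, and the difference is seen only within each number. Mpo, myeloperoxidase, was at 151 and 13.01 FPKM in EV and 41.5 and 12.3 in sg2, so that it was lower in number 1 (−1.83) and nearly level in number 2 (−0.07). In both numbers 9 of the 20 tested were lower and 3 higher, against 24.2% and 27.2% of protein-coding genes. In limma 8 had an unadjusted p below 0.05, against 6.3% of protein-coding genes. The serine protease Prss57 was lower without overlap, at 56.3 and 52.1 FPKM in EV and 47.55 and 36.1 in sg2 (limma adjusted p = 0.516). The serine proteases Prtn3, Ctsg and Elane differed less than Mpo in number 1, and of these only Ctsg was without overlap. Prtn3 was at 294 and 292 FPKM in EV and 234 and 372 in sg2, Ctsg at 48.7 and 42.4 against 30.5 and 40.2, and Elane at 2.26 and 2.41 against 1.41 and 2.50.

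Of 14 tested receptor and chemotaxis genes of neutrophils and of 8 NADPH oxidase genes, none passed, and the list medians were −0.11 and −0.06, the second being 0.05 without EV replicate 2. In limma, 5 and 0 of them had an unadjusted p below 0.05, against 6.3% of protein-coding genes. Fcgr4, an IgG receptor, was at 1.41 and 5.25 FPKM in EV and 0.779 and 1.81 in sg2, and Ncf1, an oxidase subunit, at 119 and 118 against 113 and 99.5. In both numbers 7 receptor genes were lower and 2 higher, against 24.2% and 27.2% of protein-coding genes. Of the oxidase genes 2 were lower and 1 higher. Higher in both numbers were Selplg, the oxidase gene Rac2 and the chemokine receptor gene Cxcr2. Cxcr2 was at 4.89 and 8.58 FPKM in EV and 5.65 and 9.87 in sg2. Csf3r, the receptor for granulocyte colony-stimulating factor, was at 11.2 and 9.81 FPKM in EV and 7.48 and 8.73 in sg2. Itgb2, the shared beta chain of leukocyte integrins, was at 41.8 and 47.6 against 38.1 and 36.0. In both genes the sg2 libraries were lower by less than 0.4 on the log2 scale in the fit. Olr1, a scavenger receptor for oxidized lipoprotein, did fall: it was at 3.46 and 21.3 FPKM in EV and 0.689 and 8.39 in sg2, with overlapping groups (−1.32, SE 0.12, limma adjusted p = 0.0123). Rab7b, a small GTPase of late endosomes, was at 2.16 and 13.5 FPKM in EV and 0.221 and 3.21 in sg2, overlapping as well (−1.58, SE 0.16, limma adjusted p = 0.0179).

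Epx, eosinophil peroxidase, a granule enzyme of eosinophils, was at 75.5 and 253 FPKM in EV and at 8.77 and 55.1 in sg2. The sg2 libraries were below both EV libraries, at 11.6% and 21.8% of EV within the numbers, and Epx fell by 2.57 on the log2 scale (SE 0.17, limma adjusted p = 0.00266). It makes up most of the summed eosinophil markers given above. Prg2 and Prg3, the major basic proteins of eosinophil granules, were under the filter, at 0.848 and 0.363 and at 0.835 and 0.213 FPKM in EV. In sg2, Prg2 was at 0.039 and 0 and Prg3 was listed at 0 in both libraries. Siglecf, a lectin receptor of eosinophils, was at 4.55 and 8.41 FPKM in EV and 3.31 and 5.64 in sg2, with overlap.

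Alas1, the first enzyme of heme synthesis outside erythroid cells, was at 117 and 160 FPKM in EV and 46.9 and 54.7 in sg2. It fell by 1.41 on the log2 scale (SE 0.095, limma adjusted p = 0.00266), to 40.2% of EV in number 1 and 34.2% in number 2, without overlap. It was the 1 gene of 20 tested in the heme and iron list that passed, and the list's median difference was 0.02. Alad, the next enzyme of the pathway, was at 138 and 168 FPKM in EV and 157 and 220 in sg2, and the last enzyme Fech at 10.6 and 7.85 against 12.7 and 8.50.

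The remaining genes that fell, like Olr1 and Rab7b, are in none of the lists. Pecr, a peroxisomal enoyl-CoA reductase, was at 11.9 and 26.4 FPKM in EV and 5.67 and 9.40 in sg2 (−1.17, SE 0.13, limma adjusted p = 0.0285). Ces2g, a carboxylesterase, was at 11.7 and 9.61 against 5.97 and 4.48 (−0.91, SE 0.11, limma adjusted p = 0.0441). Both genes were lower in both sg2 libraries than in either EV library. Gm9797 was at 5.07 and 3.94 FPKM in EV, against 0 in each sg2 library (limma adjusted p = 0.0042), so it reached the filter only through EV. The files call Gm9797 protein-coding, whereas GENCODE M21 lists it as a transcribed processed pseudogene, so its counting is uncertain.

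Close to the threshold on its far side stood Adam8, a metalloprotease of gelatinase granules, at 21.6 and 111 FPKM in EV and 10.6 and 69.2 in sg2 (limma adjusted p = 0.0563). Zbtb18, a zinc finger repressor, followed at 130 and 89.0 FPKM in EV and 82.2 and 44.2 in sg2 (limma adjusted p = 0.06). Adam8 overlapped between the groups, and Zbtb18 did not. The lectin receptor Clec12a, on the primary granule list, was at 67.0 and 339 FPKM in EV and 44.4 and 178 in sg2 (limma adjusted p = 0.0787). Plch1, a phospholipase C, was at 2.85 and 2.23 FPKM in EV and 0.31 and 0.378 in sg2, without overlap (limma adjusted p = 0.0737). Its mean in sg2 was 0.344 FPKM, so it reached the filter only through EV.

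No C/EBP gene other than Cebpe passed. Cebpd, which the files call a pseudogene, was not in the protein-coding fit. It was at 9.21 and 7.91 FPKM in EV and 8.84 and 9.24 in sg2 (adjusted p = 0.986 in the limma fit of all genes). Cebpa, which acts earlier in granulocyte commitment, was at 32.2 and 136 FPKM in EV and 44.3 and 216 in sg2, higher within each number with overlapping groups (0.56, SE 0.094, limma adjusted p = 0.138). Cebpb, linked to emergency granulopoiesis, was at 35.6 and 25.95 FPKM in EV against 40.0 and 51.1 (0.56, SE 0.17, limma adjusted p = 0.607). Of 31 tested myeloid transcription factors none passed, and 10 had an unadjusted p below 0.05 in limma, against 6.3% of protein-coding genes. In both numbers 11 were lower (35.5%, against 24.2% of protein-coding genes) and 12 higher (38.7%, against 27.2%). Gfi1, a repressor needed for neutrophil development, was at 8.83 and 7.31 FPKM in EV and 4.43 and 4.14 in sg2, with no overlap (−0.77, SE 0.12, limma adjusted p = 0.119). Myc was at 34.5 and 21.1 against 25.6 and 15.2, lower within each number. Spi1, which encodes PU.1, was at 137 and 135 against 129 and 116, and Gata2, a progenitor and mast cell factor, at 384 and 437 against 406 and 585.

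Only 3 protein-coding genes rose. Nmral1 (chr16:4710059-4719356, minus strand), which encodes an NmrA-like protein that senses NADPH, was at 6.54 and 4.43 FPKM in EV and 56.5 and 33.1 in sg2. Both sg2 libraries were far above both EV libraries, at 864% and 747% of EV within the numbers, and the rise was 2.79 (SE 0.11, limma adjusted p = 0.000248). Xlr4b, an X-linked gene of the Xlr family (chrX:73214333-73222453, plus strand), was at 13.97 and 12.2 FPKM in EV and 33.1 and 26.7 in sg2 (1.13, SE 0.095, limma adjusted p = 0.00773). Its near-identical neighbour Xlr4c was at 30.2 and 30.5 in EV and 36.7 and 28.7 in sg2, and the split of reads between the copies is uncertain.

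Il4, the cytokine interleukin 4 made by basophils and mast cells among others, was at 6.44 and 8.07 FPKM in EV and 12.8 and 16.4 in sg2. It rose by close to the same amount in each number (0.89 and 0.94; 0.92 in the fit, SE 0.10, limma adjusted p = 0.0285). Of 16 tested mast cell and basophil genes it was the 1 that passed. In both numbers 9 of them were higher, against 27.2% of protein-coding genes, and the list's median was 0.19. Cpa3, mast cell carboxypeptidase, was at 80.5 and 217 FPKM in EV and 110 and 247 in sg2, and the IgE receptor chain Fcer1a at 1081 and 2412 against 1733 and 2520. Both overlapped between the groups, as did the basophil protease Prss34, at 0.269 and 15.6 against 1.15 and 63.6. Serinc2, a membrane protein, was at 1.97 and 3.54 FPKM in EV and 5.26 and 6.98 in sg2, and Ppp4r4, a phosphatase subunit, at 1.23 and 2.03 against 3.42 and 6.26. Neither passed (limma adjusted p = 0.0943 and 0.0717), although both were higher in each sg2 library than in either EV library. Acta2, smooth muscle actin, was at 1.995 and 2.16 FPKM in EV and 4.12 and 4.34 in sg2, also without overlap (0.77, SE 0.14, limma adjusted p = 0.195). Tespa1, a signalling protein known from thymocytes, was at 0.717 and 0.274 FPKM in EV and 2.47 and 1.65 in sg2 (1.03, SE 0.18, limma adjusted p = 0.169). The membrane protein gene Ms4a6b was at 0.53 and 0.338 against 3.004 and 1.29, and the histone gene Hist1h2br at 0.538 and 0.854 against 1.895 and 3.61. The predicted gene Gm20431 was at 5.05 and 0.43 FPKM in EV and 9.46 and 15.6 in sg2, Gm10271 at 1.22 and 0 against 3.26 and 4.25, and Gm10130 at 0.703 and 1.45 against 1.97 and 4.27. None of these 5 genes passed. Like Serinc2, Ppp4r4, Acta2 and Tespa1, they were picked from genes higher with sg2 whose groups did not overlap, so the lack of overlap was fixed by the choice. Of all protein-coding genes tested, 5.77% were higher without overlap. Tespa1, Ms4a6b, Hist1h2br and Gm10271 had EV means of 0.496, 0.434, 0.696 and 0.608 FPKM and reached the filter only through sg2.

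**Figure D4:**
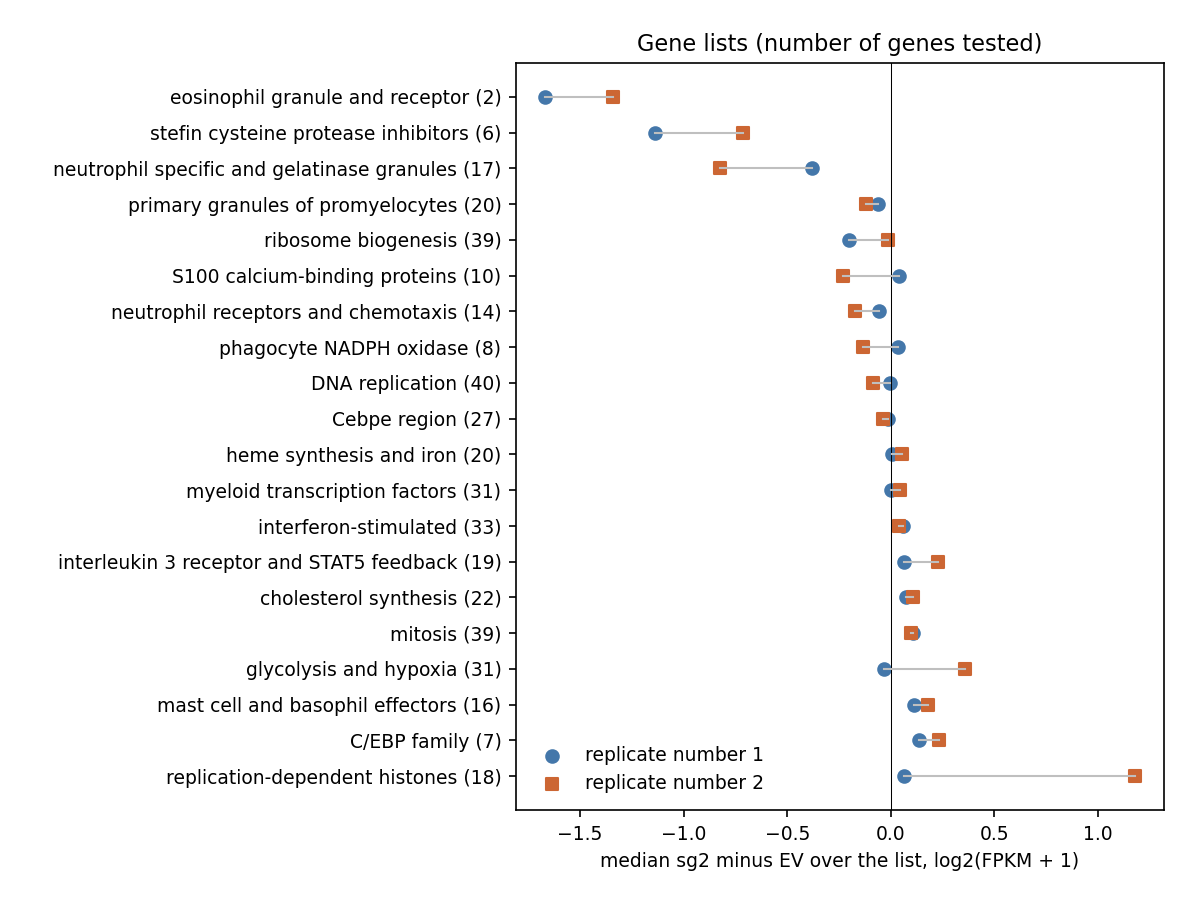
Median difference between sg2 and EV over the tested genes of each list (horizontal axis, log2(FPKM + 1)), with circles for replicate number 1 and squares for number 2; the number tested stands beside each name. The eosinophil list of 2 genes (−1.67 and −1.34) lies furthest to the left, followed by stefins (−1.14 and −0.72) and specific granules (−0.38 and −0.83), and histones lie at 0.07 and 1.18.

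In the lists of proliferation and metabolism no gene passed in limma. For comparison with the counts below, 27.2% of protein-coding genes were higher and 24.2% lower in both numbers. An unadjusted p below 0.05 in limma was found for 6.3% of protein-coding genes. Of 39 mitosis genes 30 were higher in both numbers and 1 lower, with a median of 0.13. In 10 of them the sg2 libraries lay above both EV libraries, against 5.77% of protein-coding genes, and 3 had an unadjusted p below 0.05. Cdca8, of the chromosomal passenger complex, was at 111 and 118 FPKM in EV and 128 and 138 in sg2, and the ubiquitin enzyme Ube2c at 136 and 134 against 149 and 163. Of 40 DNA replication genes 16 were lower and 4 higher in both numbers (median −0.05), and of 39 ribosome biogenesis genes 18 were lower and 3 higher (median −0.12, but 0.06 without EV replicate 1). An unadjusted p below 0.05 was found for 0 and 4 of them. Among the ribosome genes, Polr1b, a subunit of RNA polymerase I, was at 8.34 and 6.90 FPKM in EV and 6.27 and 4.93 in sg2. Of 19 genes around the interleukin 3 receptor and STAT5, 9 were higher and 1 lower in both numbers, and 4 had an unadjusted p below 0.05. Il3ra, the receptor's alpha chain, was at 33.5 and 45.4 FPKM in EV and 38.4 and 61.8 in sg2.

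The histone and glycolysis lists differed between the replicate numbers. Of 18 tested replication-dependent histone genes 12 were higher in both numbers (66.7%, against 27.2% of protein-coding genes) and none lower, but the median was 0.07 in number 1 and 1.18 in number 2. In limma 9 had an unadjusted p below 0.05, against 6.3% of protein-coding genes, and 3 of the 18 were below 1 FPKM in one of the groups. Hist1h1d was at 6.21 and 8.37 FPKM in EV and 8.79 and 31.6 in sg2. The share of FPKM in genes under 200 nt, given above, was also higher in sg2 than in EV in each number, and its part in the histone values was not tested. For 31 genes of glycolysis and the hypoxia response the medians were −0.03 and 0.36, that of the fit was 0.17 (−0.05 without EV replicate 2), and 5 had an unadjusted p below 0.05. Ero1l, an oxidase of the endoplasmic reticulum, was at 197 and 78.5 FPKM in EV and 197 and 222 in sg2, and the glucose transporter Slc2a1 at 58.5 and 8.59 against 56.7 and 25.0. Ankrd37 and Ndrg1, both induced by hypoxia, were at 35.0 and 7.75 and at 54.9 and 45.3 FPKM in EV, and at 37.6 and 22.3 and at 56.0 and 102 in sg2. In number 1 these genes were level between the groups, and the gap arose in number 2. There Ero1l, Slc2a1 and Ankrd37 were low in EV, while Ndrg1 was at 45.3 FPKM in EV and 102 in sg2.

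Cholesterol synthesis (22 tested, 12 higher in both numbers, median 0.11) and interferon-stimulated genes (33 tested, 18 higher, median 0.06) had no call in limma either. They had 0 and 3 genes with an unadjusted p below 0.05 in limma, against 6.3% of protein-coding genes. Among protein-coding genes 27.2% were higher in both numbers. Hmgcs1, an early enzyme of the cholesterol pathway, was at 66.6 and 28.1 FPKM in EV and 73.6 and 31.9 in sg2. Oas1a, an antiviral sensor, was at 26.6 and 19.6 against 20.97 and 13.9, lower within each number. Ifi27l2a, an interferon-induced gene, was highest in sg2 replicate 2: it was at 7.41 and 12.2 FPKM in EV and 12.3 and 24.0 in sg2 (limma adjusted p = 0.0777).

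Among 2345 tested genes of other biotypes, 40 were lower (1.71%) and 43 higher (1.83%) by more than 1 log2 unit in both numbers without overlap. None passed in the limma fit of all genes, and 273 had an unadjusted p below 0.05 (11.6%, against 4.74% of all genes tested). Their median length was 502 nt against 3300 nt for protein-coding genes, 777 were shorter than 200 nt, and 85 were listed at 0 in both sg2 libraries and 74 in both EV libraries. Gm27974, an entry of the miRNA biotype, was at 17.6 and 16.8 FPKM in EV, against 0 in each sg2 library (limma adjusted p = 0.181). The snoRNA entry Gm22358 was listed at 0 in EV and at 10.5 and 13.2 in sg2. For entries this short, FPKM rests on few bases.

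Of 884 tested long noncoding genes, 4 were lower by more than 1 log2 unit in both numbers without overlap (0.452%), close to the 0.426% of all genes, and none was higher. One is F630028O10Rik (chrX:96239926-96243636, plus strand), a transcript that overlaps Mir223, the gene of a miRNA known from granulocytes, picked out here after its values were seen. It was at 3.93 and 16.9 FPKM in EV and 0.098 and 0.983 in sg2, so it reached the filter only through EV. Both sg2 libraries were below both EV libraries (−2.17 in number 1 and −3.18 in number 2, SE 0.32 in the fit), but it did not pass (limma adjusted p = 0.423). Mir223 itself was listed at 0 in all 4 libraries, and the libraries were not made for small RNA. F630028O10Rik, of the antisense biotype, lies on the same strand as Mir223. Without a stated use of strand in the counting, its reads cannot be told apart from those of a gene on the other strand. The main mature product of Mir223, at chrX:96242884-96242905, is shown from RefSeq (GRCm38.p6), 5′ to 3′, with the seed (bases 2 to 8) in capitals. It is shown to identify the miRNA that the transcript overlaps.
miR-223-3p: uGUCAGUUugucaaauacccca

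The sg2 libraries were set against the sg5 libraries to find where the guides differ. The source name and genotype of sg5 replicate 2 say sg2 while its title says sg5, so each result is given with and without it. Cebpe was at 14.4 and 18.7 FPKM with sg2 and at 19.4 and 22.7 with sg5 (−0.33, SE 0.22, limma adjusted p = 0.807). No difference was detectable, nor without sg5 replicate 2 (−0.62, SE 0.25, limma adjusted p = 0.579). With all 6 libraries in the limma fit, 3 of 10581 protein-coding genes were called (0.0284%), and 684 had an unadjusted p below 0.05 (6.46%). Over all 12929 genes limma called none, and 684 had an unadjusted p below 0.05 (5.29%). Without sg5 replicate 2 limma called none of 10559 protein-coding genes, where 878 had an unadjusted p below 0.05 (8.32%), and none of 12866 genes of all biotypes, where 780 did (6.06%).

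Ngp and Xlr4b were among the 3 genes called with all 6 libraries. Ngp was at 1.51 and 10.6 FPKM with sg2 and at 3.79 and 27.0 with sg5, so it was lower with sg2 in each number (−1.10, SE 0.11, limma adjusted p = 0.048, and 0.112 without sg5 replicate 2). Xlr4b was at 33.1 and 26.7 with sg2 and at 12.9 and 9.53 with sg5, close to the 13.97 and 12.2 of EV (1.35, SE 0.10, limma adjusted p = 0.0134, and 0.0722 without sg5 replicate 2). Comparisons of each guide with EV share the EV libraries, so their values are only set side by side. S100a9 was at 1.07 and 2.97 FPKM with sg2 and 3.98 and 2.48 with sg5, and Nmral1 at 56.5 and 33.1 against 48.2 and 29.7. Epx was at 8.77 and 55.1 with sg2 and 35.1 and 61.6 with sg5, and Alas1 at 46.9 and 54.7 against 50.9 and 54.9.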

How the data were processed

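RNA sequencing of 32D cells was analysed for 2 EV and 2 sg2 libraries, grouped by title. The authors deposited FPKM values per gene, 1 table per library. TruSeq libraries were run on a HiSeq 4000, per the labels' protocols. Kallisto 0.43.0, DESeq2 and the builds GRCm38 and mm10 appear, without a role, in the submitters' processing notes. How FPKM was computed and with which annotation release is not given in the sources used here. FPKM sets each gene against the library's total, so short abundant RNAs can shift other values. Gene IDs were matched to GENCODE M21 for positions (47187 of 47606); deposited positions, 100% on chromosome 1, and strands were not used.

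Genes whose mean in these 4 libraries reached 1 FPKM entered the test on log2(FPKM + 1) with limma 3.58.1 in R 4.3.3 (empirical Bayes with an intensity trend, Benjamini-Hochberg adjustment, called at an adjusted p below 0.05), with the replicate number as a block, which leaves 1 residual degree of freedom. Replicate numbers come from the labels, which do not say that a number marks a shared batch; same-numbered libraries deviated together (r = 0.605 across all genes tested), a hint from the data. The first fit held all biotypes, and an alternative, described at length here, held protein-coding genes alone. The scripts were tested on simulated data. Depths assume fragments of 200 nt, genes over 4000 nt and a tolerance of 0.15 fragments. Members and lists were chosen with earlier results of these data known. Named genes were Ngp, which passed over all genes, and the largest protein-coding differences in each direction among genes whose groups did not overlap. These differences were ranked by the smaller of the within-number differences of each gene. Their shared sign in both numbers and their lack of overlap were therefore fixed by the choice. Also named were Cebpe and its neighbours and, of up to 4 genes of smallest p per list, some examples. Other called genes, genes near the threshold and further list members were named after their values were seen. One gene called between the guides is not reported here. Alternatives were other pseudocounts, filters, scaling and designs, and leaving out each library.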

Additional observations from a re-analysis of the deposited data

How the results depend on the processing

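Over all genes limma called 1 gene, and 0 without the replicate block (156 at an unadjusted p below 0.05), with pseudocount 0.1 (623) or 5 (597) and without a filter (927). It called 3 genes, 2 lower and 1 higher, in the 6-library fit with the replicate block and with a minimum of 5 FPKM, and 0 without each library (384 to 837). Robust empirical Bayes and median-ratio scaling gave 1 call each. With protein-coding genes alone 20 were called, 17 lower and 3 higher. Alternatives to that fit were chosen after seeing the data. They called 0 without the replicate block (54 at an unadjusted p below 0.05), 24 (19 lower, 5 higher) in the 6-library fit, 20 with either pseudocount (16 lower and 4 higher with 0.1), 1 without a filter (835 at an unadjusted p below 0.05), 26 (20 lower, 6 higher) at 5 FPKM, 16 (13 lower, 3 higher) with robust empirical Bayes and 20 with median-ratio scaling. Leaving out 1 library gave 4 to 93 calls, 3 to 46 lower and 1 to 47 higher. Fits without 1 library held the sg5 libraries, 1 of them with conflicting labels, and take a lone library to vary like the other groups. A call with the block rests on 1 residual degree of freedom. Of 648 comparisons of named genes with an alternative none reversed, and 90 no longer passed. Only a gene that had passed in a fit could lose a pass there, and over all genes only Ngp had. The 90 are therefore not to be read as a share of 648. Of the 20 genes called with protein-coding genes alone, 0 were still called without the replicate block and 1 without a filter. With robust empirical Bayes 16 were, at 5 FPKM 16, in the 6-library fit 19 and with median-ratio scaling 20. For Cebpe in the protein-coding fit, the difference stayed at −1.92 without the replicate block, without a filter and with robust empirical Bayes, where it no longer passed. The Cebpe difference ran from −2.40 to −1.44 without 1 library. Of 220 list medians under an alternative, 32 moved beyond the spread and 9, in 7 lists and all without 1 library, changed sign (S100, NADPH oxidase, myeloid transcription factors, interleukin 3 receptor, ribosome biogenesis, glycolysis and the Cebpe region), to at most 0.06 in size. Values near 1 FPKM, and genes listed at 0, are limited by depth.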
